A study of Mus musculus with 7 samples.

Results

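B cells and plasma cells made up 233 of the 40416 barcodes analysed from the immune infiltrate of GL261 tumours, a mouse glioma line grown in the brain. They were picked from raw counts of unique molecular identifiers (UMIs, each standing for 1 captured transcript). A barcode needed at least 2 UMIs of Cd79a, a signalling chain of the B cell receptor, or at least 5 UMIs of Jchain with at least 2 of Mzb1, an immunoglobulin-joining peptide and a chaperone of antibody secretion. Barcodes with any UMI of Siglech, a plasmacytoid dendritic cell gene, or of the T cell genes Cd3e, Cd3d and Cd3g were left out. Of the members, 24 had at least 5 Jchain UMIs and none of Ms4a1, which encodes CD20, and are called plasma cells. The other 209 are called B cells.

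The series compared treatments in 7 droplet libraries (Chromium 3′ v3.1), each made from a pool of 2 wild-type female mice 8 to 9 weeks old, with 5000 sorted cells per mouse. Viable CD45+ DRAQ7- leukocytes were sorted from the tumour-bearing left hemisphere on day 21. The groups were untreated (1 library), PT2385 (2 libraries), immune checkpoint blockade with antibodies to PD-1 and TIM-3, called ICB (2 libraries), and the combination of PT2385 with ICB (2 libraries). PT2385 inhibits HIF-2α, a transcription factor of the response to low oxygen. It was given at 10 mg/kg from day 7. The records state 21 days of dosing, which does not match a harvest on day 21, so its length is unclear here. The protocols mention vehicle and isotype controls without tying them to a group. A second pool of untreated mice was not analysed here, so the untreated group is 1 library of 2 mice. Pools are numbered in the order of their records, and the numbers pair nothing.

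A B cell carries its antibody as a membrane receptor, with Cd79a and Cd79b passing the signal inward. After activation it can exchange the first constant regions, encoded by Ighm and Ighd, for those of IgG or IgA, and can turn into a plasma cell. The regulator Prdm1 then shuts down the B cell programme, Xbp1 enlarges the endoplasmic reticulum, and the antibody is secreted, with Jchain holding IgA dimers and IgM pentamers together. The brain tissue of healthy mice holds few B cells, while B cells and IgA plasma cells are known from the meninges.

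5 promoters are printed because their genes mark the steps of this path. Cd79a and Jchain chose the members. Hspa5, Hsp90b1 and Derl3 belong to the secretory machinery and were higher in plasma cells than in B cells, summed over each class. Each window runs from 250 bases before to 50 bases after a RefSeq transcript start on GRCm38.p6, read 5′ to 3′ along the gene. Capitals mark the E-box CAGGTG, the letters bound by the B-lineage factor E2A, and the endoplasmic reticulum stress element, made of CCAAT, any 9 bases and CCACG, both on either strand.
Cd79a, chr7:24897247-24897546, plus strand: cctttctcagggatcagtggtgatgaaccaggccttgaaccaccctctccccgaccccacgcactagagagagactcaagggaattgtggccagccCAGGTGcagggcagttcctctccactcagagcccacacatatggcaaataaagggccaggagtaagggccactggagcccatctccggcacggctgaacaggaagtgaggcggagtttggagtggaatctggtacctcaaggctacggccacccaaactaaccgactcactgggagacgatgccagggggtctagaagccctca
Jchain, chr5:88527848-88528147, minus strand: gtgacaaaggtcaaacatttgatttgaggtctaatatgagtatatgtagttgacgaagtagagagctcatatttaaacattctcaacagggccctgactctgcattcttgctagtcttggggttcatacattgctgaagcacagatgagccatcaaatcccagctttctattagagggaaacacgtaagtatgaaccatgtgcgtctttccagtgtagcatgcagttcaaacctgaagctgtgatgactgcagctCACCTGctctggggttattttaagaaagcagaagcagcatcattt
Hspa5, chr2:34771840-34772139, plus strand: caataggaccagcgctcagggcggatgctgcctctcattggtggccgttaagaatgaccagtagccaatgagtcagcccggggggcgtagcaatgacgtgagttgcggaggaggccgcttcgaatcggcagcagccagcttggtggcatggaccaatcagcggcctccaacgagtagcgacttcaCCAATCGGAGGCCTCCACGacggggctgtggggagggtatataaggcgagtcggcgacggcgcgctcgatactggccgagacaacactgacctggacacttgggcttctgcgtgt
Hsp90b1, chr10:86705395-86705694, minus strand: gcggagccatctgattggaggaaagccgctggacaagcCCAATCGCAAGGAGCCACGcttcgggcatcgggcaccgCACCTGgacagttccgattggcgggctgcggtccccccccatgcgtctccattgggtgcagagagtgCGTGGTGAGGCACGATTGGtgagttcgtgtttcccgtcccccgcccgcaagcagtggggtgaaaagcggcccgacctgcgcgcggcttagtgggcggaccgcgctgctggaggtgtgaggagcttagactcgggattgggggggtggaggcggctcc
Derl3, chr10:75893148-75893447, plus strand: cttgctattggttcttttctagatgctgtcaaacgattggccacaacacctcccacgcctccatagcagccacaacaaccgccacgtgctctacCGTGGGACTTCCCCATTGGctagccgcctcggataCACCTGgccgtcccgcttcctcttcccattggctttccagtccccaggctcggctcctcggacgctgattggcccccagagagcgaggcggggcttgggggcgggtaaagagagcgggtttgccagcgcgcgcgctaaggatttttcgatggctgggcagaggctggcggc
The stress element stood once in the Hspa5 and Derl3 windows and at 2 places in that of Hsp90b1, and the E-box stood in those of Cd79a, Jchain, Hsp90b1 and Derl3.

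Over all 32817 RefSeq windows of this length, 20.2% held the E-box and 0.119% held the stress element. Windows were found for 12 of the 14 genes on a list of the unfolded protein response, and 5 of these genes held the stress element. For a list of plasma cell genes the count was 2 of 16, and for a list of B cell genes 0 of 10. The E-box was found for 6 of those 10 B cell genes, 4 of the 16 plasma cell genes and 3 of the 12 stress genes. A gene was counted if any of its windows held the letters, and Ebf1 and Fkbp11 had more than 1 window. The shares over all windows are per window, so the 2 measures differ. The octamer ATGCAAAT, on either strand, stood in none of the 3 lists and in 1.74% of all windows. These are matches of letters and say nothing of binding.

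Libraries held 4847 to 7961 kept barcodes each, with median depths of 8388 to 12006 UMIs. B cells had a median of 7377 UMIs and 2628 genes, with a range of 934 to 72885 UMIs. The median for plasma cells was 27855 UMIs and 3958 genes, with a range of 1056 to 48715 UMIs. Of 40242 distinct barcode sequences 174 occurred in more than 1 library, 2 members had such a sequence, and none was a member in both libraries. No doublet caller was used. Markers of other cells in the members are given with the results they touch.

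The markers that the choice did not use matched the names of both classes. Of 14 further B cell genes, all 14 were lower in plasma cells than in B cells when UMIs were summed over each class. When immunoglobulin UMIs were left out of the totals, 12 were (all but Fcrla and Ralgps2). Immunoglobulin genes took 36.5% of plasma cell UMIs and 2.64% of B cell UMIs, which lowers the share left to other genes. The share of all genes that were lower in plasma cells is not given here, for this list or later ones. Pax5, the factor that holds B cell identity, was detected in 172 of 209 B cells and in 0 of 24 plasma cells. That 0 allows up to 12.5% of cells with a UMI and sets no limit on cells that express the gene below capture. All 18 genes of the plasma cell list were higher in plasma cells. At least 1 UMI of Sdc1, Prdm1 or Tnfrsf17, which mark plasma cells, was found in 21 of the 24. The split itself rests on Jchain and Ms4a1, so every gene difference between the classes is given as a description without a test.

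The threshold cut cleanly on one side and less cleanly on the other. The lowest Jchain count of a plasma cell was 21 UMIs, and none lay between 5 and 9. 9 members had exactly 2 Cd79a UMIs, and 46 barcodes outside had 1. Of 406 barcodes with the positive markers, 103 were left out for Siglech and a further 70 for a Cd3 gene, 18 of the latter with a single Cd3 UMI. Among the B cells 9 had 5 or more Jchain UMIs, together with 1 to 27 Ms4a1 UMIs.

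**Figure D1:**
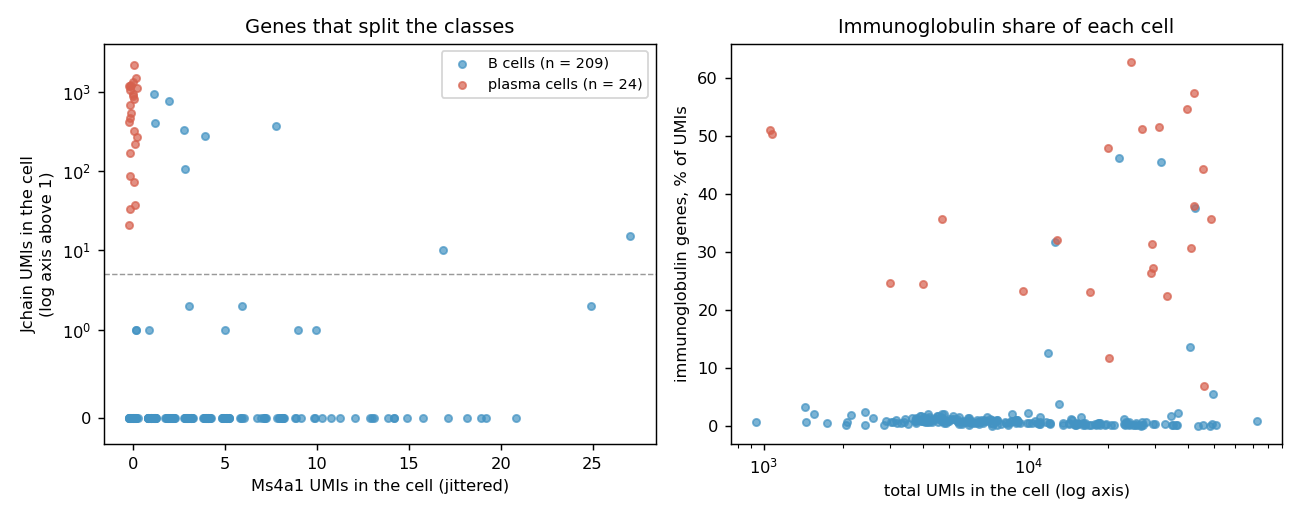
Left: Jchain UMIs (log axis above 1) against Ms4a1 UMIs of each member, with the dashed line at 5 Jchain UMIs. Right: immunoglobulin genes as a percentage of all UMIs of a cell against its total UMIs (log axis). Plasma cells lie at 0 Ms4a1 by definition, and their immunoglobulin share ran from 6.83% to 62.8%, while the B cells with 5 or more Jchain UMIs reached 46.2%.

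B cells were rare in every library, and the 2 pools of the PT2385 group and of the ICB group differed from each other. In the untreated library 11 barcodes were B cells, 0.138% of those kept. The PT2385 pools held 45 (0.867%) and 12 (0.226%). The ICB pools held 81 (1.38%) and 18 (0.310%). Both combination pools lay between these extremes, with 15 (0.309%) and 27 (0.498%). The exact binomial 95% intervals of pool 1 and pool 2 did not overlap in the PT2385 group, at 0.633 to 1.16% against 0.117 to 0.395%, or in the ICB group, at 1.09 to 1.71% against 0.184 to 0.489%. These intervals cover counting error only.

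Plasma cells numbered 3 in the untreated library, 2 and 3 in the PT2385 pools, 4 and 4 in the ICB pools, and 0 and 8 in the combination pools. Their share of kept barcodes was 0.0377% in the untreated library, 0.0385% and 0.0566% with PT2385, and 0.0680% and 0.0689% with ICB. Combination pool 2 had the highest share, at 0.148%, and the 0 of combination pool 1 allows a share of up to 0.0619% of barcodes that meet the rule. That limit depends on the rule, since 9 further secretory barcodes there, 0.186% of those kept, were left out for Siglech or a Cd3 gene, against 2 to 5 in the other libraries. All intervals of libraries with plasma cells overlapped.

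**Figure D2:**
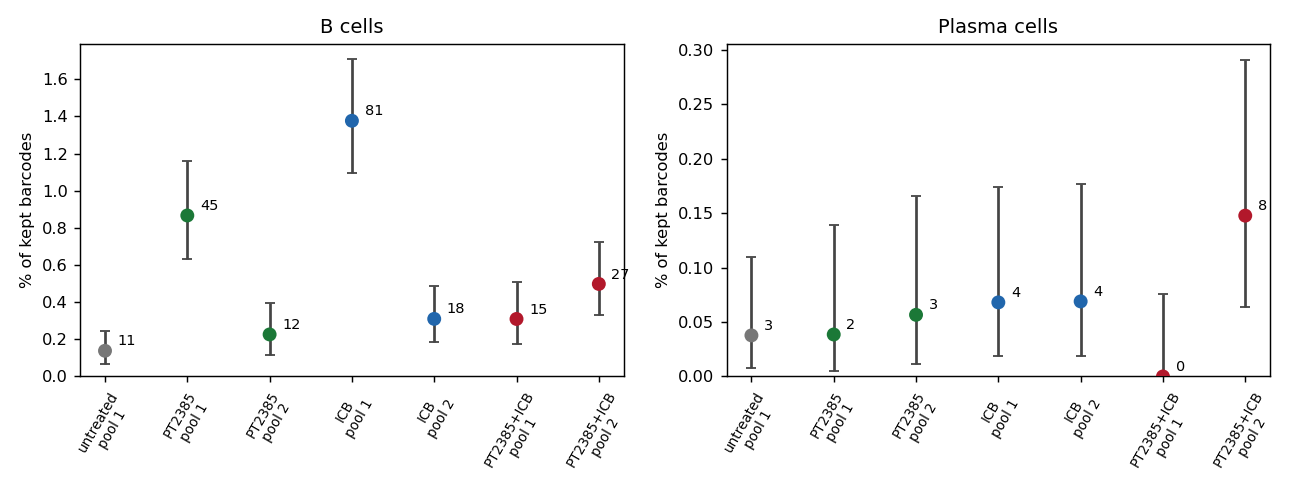
B cells (left) and plasma cells (right) as a percentage of kept barcodes in each library, with exact binomial 95% intervals and the number of cells beside each point. The untreated library had the lowest B cell share (0.138%) and ICB pool 1 the highest (1.38%), and the 2 pools of the PT2385 and ICB groups lie apart.

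No treatment contrast of these shares exceeded the spread between libraries. The B cell share averaged 0.475% ± 0.285 (SD, n = 4 libraries) with PT2385 and 0.608% ± 0.671 (n = 3) without it, exact two-sided permutation p = 0.743. With ICB it averaged 0.624% ± 0.510 (n = 4) against 0.410% ± 0.398 (n = 3) without, exact permutation p = 0.600. Both differences changed sign when ICB pool 1 was left out, to 0.251 and -0.0378 percentage points. For the plasma cell share the means were 0.0607% ± 0.0626 and 0.0582% ± 0.0178 for PT2385 (exact permutation p = 0.971), and 0.0711% ± 0.0603 and 0.0443% ± 0.0107 for ICB (exact permutation p = 0.543), again for 4 against 3 libraries. The PT2385 contrast of this share changed sign without the untreated library (-0.00776) or without combination pool 2 (-0.0265).

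Plasma cells as a fraction of both classes ranged from 0% in combination pool 1 to 22.9% in combination pool 2, at unequal depths. The untreated library had 21.4%, the PT2385 pools 4.26% and 20.0%, and the ICB pools 4.71% and 18.2%. With every barcode thinned to 3000 UMIs, and shallower ones left out, it was 33.3% in the untreated library, 4.88% and 42.9% in the PT2385 pools, 4.55% and 30.0% in the ICB pools, and 0% and 40.0% in the combination pools, so that PT2385 pool 2 was then the highest. At full depth the fraction averaged 11.8% ± 11.3 (n = 4) with PT2385 and 14.8% ± 8.87 (n = 3) without, exact permutation p = 0.743. For ICB the averages were 11.4% ± 10.8 (n = 4) and 15.2% ± 9.53 (n = 3), exact permutation p = 0.686. The 10 tests of this family had adjusted p of 0.857 or more, and 4 against 3 libraries cannot go below 0.0286. The sign of both contrasts of the fraction turned without combination pool 1, to 0.932 and 0.0203 percentage points.

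The gene programme of the plasma cells was that of antibody secretion, with the B cell programme low or absent. Levels are given in CPM, the UMIs of a gene per 1000000 UMIs summed over a class. They come from 3′ tags, so they do not scale with transcript length. Hsp90b1, a chaperone of the endoplasmic reticulum, ran from 2830 to 7514 CPM in the plasma cells of 6 libraries and from 295 to 1480 CPM in the B cells of 7 libraries. Hspa5, the chaperone BiP, ran from 856 to 3046 CPM in plasma cells and from 294 to 874 CPM in B cells. The ranges of Hsp90b1 did not overlap, while those of Hspa5 did. Within each library with plasma cells both genes were higher in the plasma cells.

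Xbp1, which drives the expansion of the secretory compartment, was at 799 to 1639 CPM in plasma cells and 50.5 to 263 CPM in B cells. Txndc5, a disulfide isomerase, stood at 669 to 1548 CPM against 36.9 to 585 CPM. Sec11c, a subunit of the signal peptidase, stood at 742 to 2259 CPM against 148 to 411 CPM. For each of these 3 genes the plasma cells of every library lay above the B cells of every library. Derl3, which feeds misfolded proteins to degradation, was higher in the plasma cells of 5 of 6 libraries, at 216 CPM against 32.3 CPM over all cells of a class. On the list of the unfolded protein response 13 of 14 genes were higher in plasma cells over all cells. The exception was the stress factor Atf4, at 101 CPM against 107 CPM, which turned to higher in plasma cells without immunoglobulin UMIs, and Ddit3 was all but level at 28.3 against 28.0 CPM.

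Outside the immunoglobulin genes, the largest plasma to B cell ratio among 3627 genes belonged to Ccr10, the receptor for the chemokines CCL27 and CCL28 that guides IgA plasma cells to mucosal tissue. It had 42 UMIs in 13 of 24 plasma cells and 0 UMIs in B cells, which makes it at least 59.8-fold higher by a floor of 3 counts over the class. Tnfrsf17, the survival receptor BCMA, had 68.2 CPM from 41 UMIs in plasma cells and 2 UMIs in B cells. Fkbp11, a prolyl isomerase of secretory cells, was 30.8-fold higher, at 360 CPM against 11.7 CPM. Sdc1, the surface proteoglycan CD138, was 24.7-fold higher, at 125 CPM against 5.06 CPM. Cd28, a costimulatory receptor that also supports plasma cell survival, was 18.9-fold higher at 51.6 CPM, from 31 UMIs in 11 plasma cells. Eaf2, a transcription elongation factor, was 15.2-fold higher at 493 CPM. The ratio was 11.8 for Farp2, 9.67 for Epcam and 9.66 for Tram2.

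At the other end of the ratios stood genes of B cell identity. Pax5 was at 290 CPM in B cells and at 0 in plasma cells, at least 58.1-fold higher in B cells. Fcmr, the receptor for IgM, was at 220 CPM and 0, at least 44.1-fold higher in B cells. Ebf1, the factor that commits cells to the B lineage, was at 952 to 2433 CPM in the B cells of the 7 libraries and 45.5-fold higher over all cells than in plasma cells. Satb1, a chromatin organiser, was 54.1-fold higher at 360 CPM. Gpr183, a receptor that positions B cells in follicles, was at 243 CPM against 3 UMIs in plasma cells, and the receptor kinase Blk at 226 CPM against 2 UMIs.

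3 further genes with high B cell levels came from few cells. Of the B cell UMIs of Ccl8, a monocyte chemokine, 80.2% lay in 3 cells. For Enpp2 it was 99.3% in 3 cells, and 98.1% of those of Mcpt2, a mast cell protease, lay in 1 cell of PT2385 pool 1. Leaving immunoglobulin UMIs out of the totals raises every plasma to B cell ratio by 0.62 on the log2 scale. Combination pool 2 gave 43.0% of all plasma cell UMIs, and ICB pool 1 gave 30.6% of those of B cells.

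**Figure D3:**
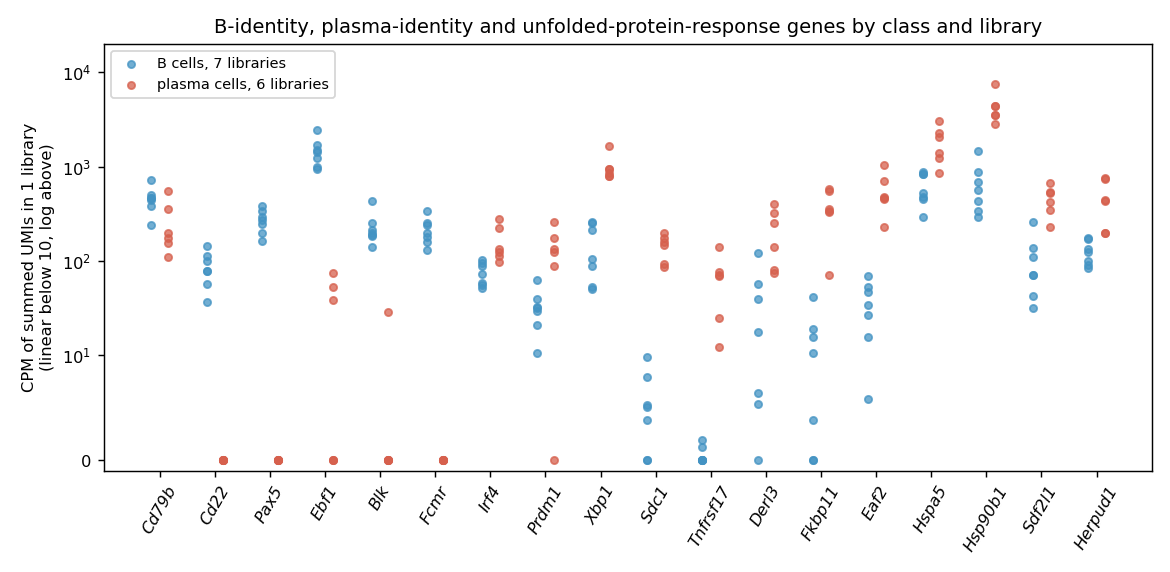
CPM of summed UMIs (linear below 10, log above) for genes of B cell identity, plasma cell identity and the unfolded protein response, 1 point per library and class. Pax5, Cd22 and Fcmr are at 0 in the plasma cells of all 6 libraries, and the points of Xbp1 and Hsp90b1 do not overlap between the classes.

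Genes of antigen presentation were lower in plasma cells. All 14 genes of the class II list and all 10 of the naive or follicular list were lower there than in B cells, also without immunoglobulin UMIs in the totals. All 17 genes of B cell receptor signalling were lower too, but without immunoglobulin UMIs 4 of them were higher in plasma cells (Plcg2, Bcl10, Nfkbia and Egr1). Lower levels in plasma cells were not particular to these lists. Only 2 of 15 hypoxia and HIF genes, 1 of 16 interferon response genes and 5 of 13 proliferation genes were higher there. Without immunoglobulin UMIs these counts were 6, 4 and 8. H2-Aa, a class II chain, was at 2702 to 4764 CPM in B cells and at 74.9 to 2341 CPM in plasma cells. Summed over the class II list, plasma cells were at 17098, 12423 and 8508 CPM in PT2385 pool 1, combination pool 2 and ICB pool 2, where monocyte and macrophage markers summed to 8863, 7849 and 5445 CPM in the same cells. In the other 3 libraries with plasma cells they were at 2693 to 5610 CPM, with those markers at 175 to 609 CPM. The part of these transcripts in the class II levels was not tested. H2-Oa and H2-Ob, which temper the loading of class II molecules, were detected in 133 and 153 of 209 B cells and in 2 and 5 of 24 plasma cells. Cd79b remained detectable in 21 of 24 plasma cells, at 205 CPM against 456 CPM in B cells. Tnfrsf13b, the receptor TACI, was detected in 93 B cells (77.9 CPM) and 19 plasma cells (105 CPM), and Tnfrsf13c, the BAFF receptor of resting B cells, in 104 B cells (107 CPM) and 11 plasma cells (33.3 CPM).

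Homing receptors divided the classes. Cxcr5, which leads B cells into follicles, was detected in 117 B cells, Ccr7 in 148 and Ccr6 in 86, and none of the 3 in a plasma cell. Cxcr3, a receptor for interferon-induced chemokines, was detected in 26 B cells and 14 plasma cells, at 33.9 CPM and 86.6 CPM. Itga4, an integrin chain for entry into inflamed tissue, was at 359 CPM and 424 CPM. The plasma cells with Ccr10 were 10 of the 13 with IgA, 2 of the 9 with IgG and 1 of the 2 with IgM. Cxcr3 was found in 8 of the IgA and 6 of the IgG plasma cells.

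Immunoglobulin constant genes were then read cell by cell, naming a cell by the heavy-chain constant gene with the most UMIs. Most B cells were unswitched. Of 200 B cells with such a call, 160 had Ighm and 15 had Ighd on top, 87.5% together (exact binomial 95% interval 82.1 to 91.7%). This interval, and the later ones over pooled cells, treat cells of all libraries as independent draws. They cover counting error only and leave out the spread between libraries. IgG genes led in 23 cells, namely Ighg2b in 11, Ighg2c in 7, Ighg1 in 3 and Ighg3 in 2. Igha led in 2. Ighd was detected in 148 of 209 B cells.

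Plasma cells were mostly switched, and more of them carried Igha than any other gene. Igha led in 13 of 24, 54.2% (32.8 to 74.4%). Ighg2c led in 8 and Ighg2b in 1, so that IgG made up 37.5% (18.8 to 59.4%), and Ighm led in 2. The leading gene held a median of 99.9% of the heavy-chain constant UMIs of a plasma cell (lowest 86.0%) and 76.9% of those of a B cell. The constant genes of the IgG subclasses resemble each other, as do Iglc2 and Iglc3, so calls among them are less certain than those between IgM, IgG and IgA.

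IgA plasma cells came from 5 of the 6 libraries with plasma cells: 2 of 3 in the untreated library, 1 of 2 and 2 of 3 in the PT2385 pools, 2 of 4 in ICB pool 2 and 6 of 8 in combination pool 2. ICB pool 1 had none among 4, with 3 carrying Ighg2c and 1 Ighm. In CPM of summed UMIs Igha was at 46581 in the untreated plasma cells, 10476 and 78869 with PT2385, 0 and 37426 with ICB, and 79716 in combination pool 2. In B cells Igha was at 37.4 CPM over all libraries, beside 47.1 CPM in the barcodes of neither class, which hold the left-out secretory barcodes. 1 B cell held 23 of the 96 B cell UMIs of Igha, and 3 cells held 52.1%.

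Plasma cells with transcripts of myeloid cells were uneven over these calls. 12 of 24 had 5 or more UMIs summed over 7 myeloid markers: 2 and 2 in the PT2385 pools, 2 in ICB pool 2 and 6 in combination pool 2. Of the other 12, 4 carried Igha and 7 an IgG gene, so the lead of IgA does not hold there. The part of these transcripts in the calls was not tested.

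Among the 9 B cells with 5 or more Jchain UMIs, 6 carried IgG and 3 IgM, and 0 of 9 carried IgA (0 to 33.6%). These cells held most of the antibody transcripts of the B cells: their 14370 heavy-chain constant UMIs stand beside 3274 in the other 200. A single cell of combination pool 2 held 5530 Ighg1 UMIs, and one of ICB pool 2 held 2471 UMIs of Ighg3. 5 of the 9 had at least 2 UMIs of Mki67 and Top2a, which mark dividing cells. Among B cells with under 5 Jchain UMIs, 172 of 191 were unswitched, 90.1% (84.9 to 93.9%).

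**Figure D4:**
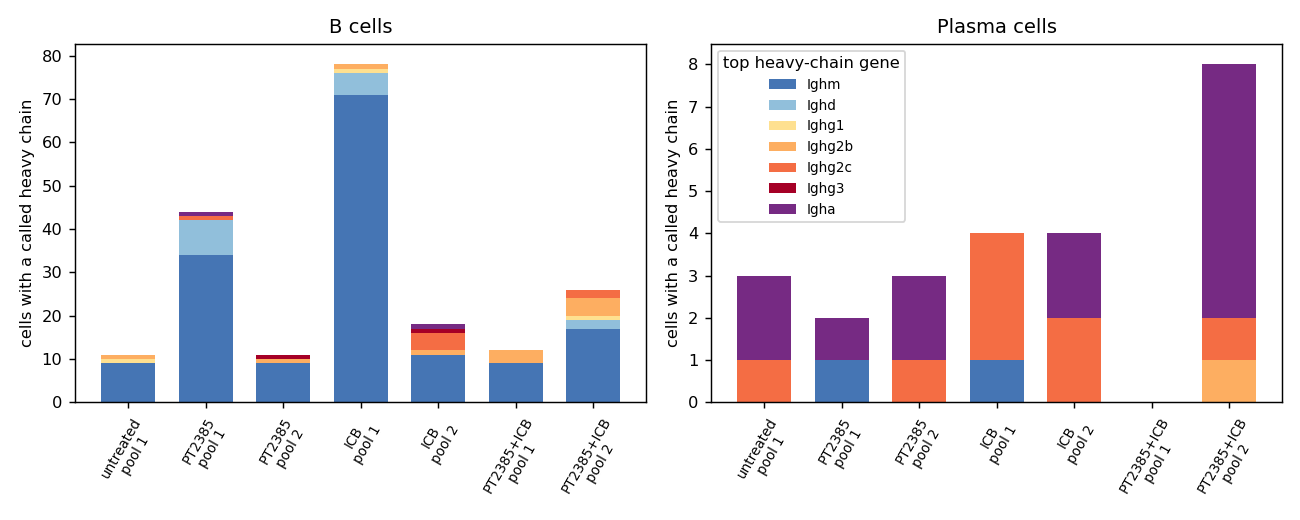
Number of B cells (left) and plasma cells (right) by the heavy-chain constant gene with the most UMIs, stacked for each library, with cells that had no call left out. Ighm leads among the B cells of every library, and Igha among the plasma cells of 3 libraries, with 6 of 8 in combination pool 2.

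The share of Ighm and Ighd in all heavy-chain constant UMIs of B cells rested on 1 cell in some libraries. It was 11.2% in the untreated library, 97.4% and 97.0% with PT2385, 98.2% and 4.58% with ICB, and 84.9% and 6.61% in the combination pools. The cell with the most such UMIs gave 83.6%, 9.71%, 91.5%, 66.6%, 64.8%, 31.5% and 90.8% of the total in these libraries. Without the 9 B cells rich in Jchain the share lay between 68.3% and 97.4%. With PT2385 it averaged 71.5% ± 43.6 (n = 4) and without it 38.0% ± 52.2 (n = 3), exact permutation p = 0.400. With ICB it averaged 48.6% ± 49.9 (n = 4) and without it 68.6% ± 49.7 (n = 3), exact permutation p = 0.571.

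Kappa light chains predominated. Igkc led in 173 of 199 B cells with a call and lambda genes in 26, 13.1% (8.72 to 18.6%). In plasma cells Igkc led in 22 of 24 and Iglc1 in 2. Of the lambda B cells 15 were in ICB pool 1, out of 73 called there.

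Antibody transcripts were also counted outside these cells, as a comparison for the shares of cells with a UMI. Barcodes with at least 3 Cd3 UMIs and under 5 C1qa UMIs were taken as T cell barcodes. Left-out secretory barcodes that met these limits stayed among them. Of the T cell barcodes 6.17 to 28.0% had an Igkc UMI, against 76.5 to 100% of B cells. The 2 highest T cell shares were in the combination pools. Igkc was at 4712 CPM in those of combination pool 1, where 3 left-out secretory barcodes had 16 to 78 Cd3 UMIs. The part of such barcodes in these values was not tested. An Ighm UMI was found in 25.5 to 47.2% of these T cell barcodes and in 66.7 to 97.8% of B cells. In the untreated library 32.9% of the T cell barcodes had Ighm and 11.5% Igkc, while all kept barcodes were at 59.0 and 234 CPM. In combination pool 2 the shares were 25.5% and 28.0%, at 99.9 and 1435 CPM. The source of the Ighm UMIs in T cell barcodes was not tested. A Jchain UMI was found in 0.403 to 5.31% of the T cell barcodes and in 2.22 to 18.2% of B cells. Median depths were 7497 to 9405 UMIs in the T cell barcodes and 5776 to 13872 UMIs in B cells.

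Some secretory barcodes were left out by the rule. 14 barcodes with at least 5 Jchain, 2 Mzb1 and 100 light-chain UMIs had a Cd3 UMI, between 1 and 78 of them, and 15 more had Siglech. Of the 14, 5 carried Igha, 6 an IgG gene and 3 Ighm. Combination pool 1, which had no plasma cell by the rule, held 3 of them, 2 with Igha and 1 with Ighm, and 6 of the 15 with Siglech, where the other libraries held 0 to 2.

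Variable segments, the parts of the antibody genes that bind antigen, were read from the same counts. The light segment was taken only from the locus, kappa or lambda, of the light constant gene with the most UMIs. Both a heavy and a light segment could be named in 22 of 24 plasma cells. The pair Ighv3-8 with Igkv10-96 led in 6 plasma cells of 4 libraries: 3 in the untreated library, 1 in PT2385 pool 1, 1 in ICB pool 2 and 1 in combination pool 2. Their constant genes differed, with Igha in 3, Ighg2c in 2 and Ighg2b in 1. Iglv1, a lambda segment, had more UMIs than Igkv10-96 in those of ICB pool 2 and combination pool 2 (123 against 97, 120 against 59). The same held for 1 cell of the untreated library (22 against 6). The pair rested on 5 to 76 heavy and 6 to 97 light UMIs. It also led in 4 of the left-out secretory barcodes, 2 in the untreated library and 1 each in PT2385 pool 1 and ICB pool 2, in 3 of them from no more than 6 UMIs of either segment.

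Other pairs repeated within a library. Ighv1-26 with Igkv17-127 led in 4 of the 8 plasma cells of combination pool 2, all with Igha. Ighv9-3 with Igkv5-43 led in both IgA plasma cells of PT2385 pool 2. In ICB pool 2, Ighv1-82 with Igkv3-1 led in 1 plasma cell and in 1 Jchain-rich B cell, both with Ighg2c and both with UMIs of Mki67 and Top2a. Ighv1-18 with Igkv1-117 led in an IgM plasma cell of PT2385 pool 1 and in a Jchain-rich IgM B cell of PT2385 pool 2.

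In all, 12 plasma cells shared both segments with another member of their library that had 5 or more Jchain UMIs. The number was 14 when the left-out secretory barcodes with a Cd3 UMI were counted too. Among plasma cells alone, with the light segment read over both loci as first planned, it was 7. 2 of the 12, in ICB pool 1, were small (1056 and 1073 UMIs), both had Ighg2c, Ighv3-6 and Igkv19-93 (2 UMIs each of the latter), and their barcodes differed at 9 bases. The counts come from the 3′ end of transcripts, so segments had a median of 12 UMIs for the heavy chain. For the light chain, read over both loci, it was 27.5. Segments of a family are near copies, and 8 of the 22 kappa plasma cells had more UMIs assigned to Iglv1, a lambda segment, than to their leading kappa segment. A shared pair is therefore uncertain and is no proof of a shared ancestor.

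Transcripts of resting follicular cells were common in the B cells. Bach2, which delays plasma cell formation, was detected in 199 of 209 B cells, Ccr7 in 148, Klf2 in 143 and Fcer2a, the low-affinity IgE receptor CD23, in 78. Cr2, the complement receptor CD21, was detected in 66. Among genes of the germinal centre, Rgs13 was detected in 4 B cells and Gcsam in 0 of 209, which allows up to 1.44% of cells with a UMI. Bcl6 was detected in 81 B cells, at 67.0 CPM beside 110 CPM in the barcodes of neither class. Of the genes of memory and age-associated B cells, Cd80 was detected in 54, Fcrl5 in 41 and Tbx21 in 17.

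10 B cells had transcripts of B cell development, a subset chosen after the values were seen. They had at least 2 UMIs over Rag1 and Rag2, which recombine antibody genes, Dntt, which adds bases at the joints, and Vpreb1, Vpreb2 and Igll1, which form the surrogate light chain. 8 came from ICB pool 1, 1 from PT2385 pool 1 and 1 from combination pool 1. They held 296 of the 297 B cell UMIs of Vpreb1, all 160 of Igll1 and all 83 of Dntt. Ighm was their leading heavy-chain gene in each, Ms4a1 had 0 or 1 UMI, and 7 of the 10 had no light-chain UMI, as did only 1 other B cell.

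5 of these 10, all in ICB pool 1, also had at least 2 UMIs of Mki67 and Top2a. In the barcodes of neither class, ICB pool 1 had the highest summed CPM of neutrophil markers (1520, against 54.4 to 794 in the other libraries), red cell markers (85.1 against 0.0613 to 7.34) and border macrophage markers (296 against 25.7 to 123). The part of these differences in the B cell counts was not tested.

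Dividing cells were found in both classes. At least 2 UMIs of Mki67 and Top2a were present in 25 of 209 B cells, namely 1 in the untreated library, 2 and 0 in the PT2385 pools, 9 and 6 in the ICB pools and 1 and 6 in the combination pools. Their median depth was 23219 UMIs. 7 of 24 plasma cells met the same limit, 5 of them with IgA, and no more than 2 came from one library.

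Genes for suppressive or stimulatory signals ranged from sparse to common. Il10 was detected in 7 B cells and 3 plasma cells, Il12a and Ebi3, the subunits of IL-35, in 27 and 31 B cells. Cd274, which encodes PD-L1, was detected in 114 B cells at 319 CPM, beside 391 CPM in the barcodes of neither class. Ltb, a lymphotoxin chain, was detected in 171 B cells at 296 CPM. Of the antibody targets, Pdcd1 (PD-1) was detected in 5 B cells and Havcr2 (TIM-3) in 41 B cells and 6 plasma cells. Both were lower in B cells than in the barcodes of neither class, at 1.95 against 43.5 CPM for Pdcd1 and 39.0 against 141 CPM for Havcr2. Epas1, the target of PT2385, had no UMI in 209 B cells, which allows up to 1.44% of cells with a UMI and does not limit expression below capture, and was detected in 2 plasma cells.

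Macrophage transcripts were common in the members. The 9 markers of monocytes and macrophages summed to 5128 to 20149 CPM in the B cells of the 7 libraries, against 18158 to 34649 CPM in the barcodes of neither class. Lyz2 was detected in 125 and Apoe in 182 of 209 B cells. At least 5 UMIs over 7 myeloid markers were present in 75 B cells and at least 100 in 38. T cell markers were near 0 at 19.9 CPM, with the 3 Cd3 genes at 0 by the rule, and neutrophil markers stood at 12.5 CPM.

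Expression in B cells was compared between treatments on UMIs summed per library, with an additive model of PT2385 and ICB over all 7 libraries (edgeR quasi-likelihood test, 6594 genes, Benjamini-Hochberg adjusted p under 0.05). Plasma cells were too few for such a test. For PT2385 1 gene passed, 0.0152% of those tested, while 569 had an unadjusted p under 0.05. For ICB 6 genes passed, 0.091% of those tested, 4 higher and 2 lower, and 445 had an unadjusted p under 0.05. In a test of the interaction 0 of 7720 genes passed (0%) with edgeR and 0 with DESeq2, with 346 at an unadjusted p under 0.05 in edgeR.

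The gene that fell with PT2385 was Cdc20, an activator of the anaphase-promoting complex in mitosis. It was at 31.6 CPM in the untreated library, 81.5 and 71.6 CPM in the ICB pools, 1.94 and 0 CPM in the PT2385 pools, and 0 and 2.46 CPM in the combination pools. Both sets of libraries stood apart, with a log2 change of -4.84 ± 0.61 (SE), edgeR adjusted p = 0.0267. It rests on few cells: 97 UMIs in 11 B cells, of which 3 cells gave 77.3%. Without PT2385 pool 1 the edgeR adjusted p was 0.0798, without combination pool 2 it was 0.397, and without ICB pool 2 the gene was no longer among those tested. The next genes missed the threshold: Gbp2b, a guanylate-binding protein, was listed at 0 CPM in the 3 libraries without PT2385 and at 5.91 to 96.1 CPM in the 4 with it (edgeR adjusted p = 0.0512).

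The 13 genes tested from a list of proliferation had a median log2 change of -1.22 with PT2385, beside 0.00 over all genes. None passed, and 8 had an unadjusted p under 0.05 (8.63% of all genes did), the strongest being Ccnb1, a mitotic cyclin, at edgeR adjusted p = 0.0570. Summed over the list, B cells were at 873 and 420 CPM in the PT2385 pools and 657 and 1530 CPM in the combination pools, against 1138 CPM in the untreated library and 2328 and 3779 CPM in the ICB pools. The ranges overlapped. With ICB the median of the same genes was 1.43, 7 had an unadjusted p under 0.05 (6.75% of all genes did) and none passed. Dividing B cells were few, at 25 of 209 by the Mki67 and Top2a limit given above. The untreated library held 1, the PT2385 pools 2 and 0, the ICB pools 9 and 6, and the combination pools 1 and 6. Of the 9 in ICB pool 1, 5 had transcripts of B cell development. The part of these cells in both medians was not tested.

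Class II genes had a median log2 change of 0.43 with PT2385 over 14 genes, with 7 at an unadjusted p under 0.05, where 8.63% of all genes were, and none past the threshold. The strongest was H2-Eb1, 0.75, at edgeR adjusted p = 0.179. Monocyte and macrophage markers in the same B cells summed to 16421 and 20149 CPM in the PT2385 pools and 7788 and 15273 CPM in the combination pools, against 6926 CPM in the untreated library and 9830 and 5128 CPM in the ICB pools. Their part in the class II values was not tested. Of 15 interferon response genes tested for PT2385 with edgeR, 8 had an unadjusted p under 0.05, beside the same 8.63% of all genes, and none passed, with Isg15 at -1.07 and adjusted p = 0.216. For hypoxia and HIF genes in the same contrast 4 of 12 had an unadjusted p under 0.05 and none passed. None of the 14 B cell identity genes had an unadjusted p under 0.05 in either contrast.

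With ICB the strongest call was Ttr, transthyretin, which the choroid plexus makes in large amounts. In B cells it was at 0 CPM in the untreated library, 1.94 and 0 CPM with PT2385, 2340 and 106 CPM with ICB, and 10490 and 9700 CPM in the combination pools. Both sets stood apart, with a fitted log2 change of 12.48 and edgeR adjusted p = 0.00346. The libraries without ICB held 1 Ttr UMI in B cells, so the fitted size depends on the prior count and is no bound. Of the 7791 Ttr UMIs in B cells 97.3% lay in 3 cells, 1 in ICB pool 1 and 1 in each combination pool.

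The same libraries were high in other cells. The T cell barcodes (at least 3 Cd3 and under 5 C1qa UMIs) had 0.0844, 81.9 and 2.32 CPM of Ttr in the libraries without ICB. In those with ICB they had 334, 651, 1234 and 3195 CPM. Barcodes with at least 5 C1qa UMIs, a macrophage gene, had 0.286 to 36.9 CPM and 533 to 1950 CPM. A Ttr UMI was found in 77.8 to 93.3% of B cells in ICB pool 2 and both combination pools, and in 56.5 to 84.7% of the T cell barcodes and 66.9 to 90.2% of the macrophage barcodes there. Without the 3 B cells with 20 or more Ttr UMIs the change was 7.21 (edgeR adjusted p = 0.00262), and 3 genes passed, Ttr, Saa3 and Fth1.

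Enpp2 (autotaxin, at log2 11.27), Igfbp2 (8.20) and Prlr (the prolactin receptor, 7.73) also rose with ICB, each at edgeR adjusted p = 0.0331. None had a UMI in the B cells of a library without ICB, so these fitted sizes depend on the prior count as well and are no bounds. In ICB pool 1, ICB pool 2 and the combination pools, Enpp2 was at 76.4, 0, 620 and 1294 CPM. Igfbp2 was at 5.09, 0, 144 and 93.3 CPM there, and Prlr at 5.09, 2.65, 69.4 and 93.3 CPM. ICB pool 2 thus had no UMI of Enpp2 or Igfbp2, like the libraries without ICB, and 1 of Prlr. The 3 B cells that were high in Ttr held 99.3% of the 703 Enpp2 UMIs, all 69 of Igfbp2 and 80.4% of the 56 of Prlr. Prlr was also detected in 7 of 24 plasma cells, with 1 in the untreated library, 1 and 2 in the PT2385 pools, 2 in ICB pool 1 and 1 in combination pool 2.

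**Figure D5:**
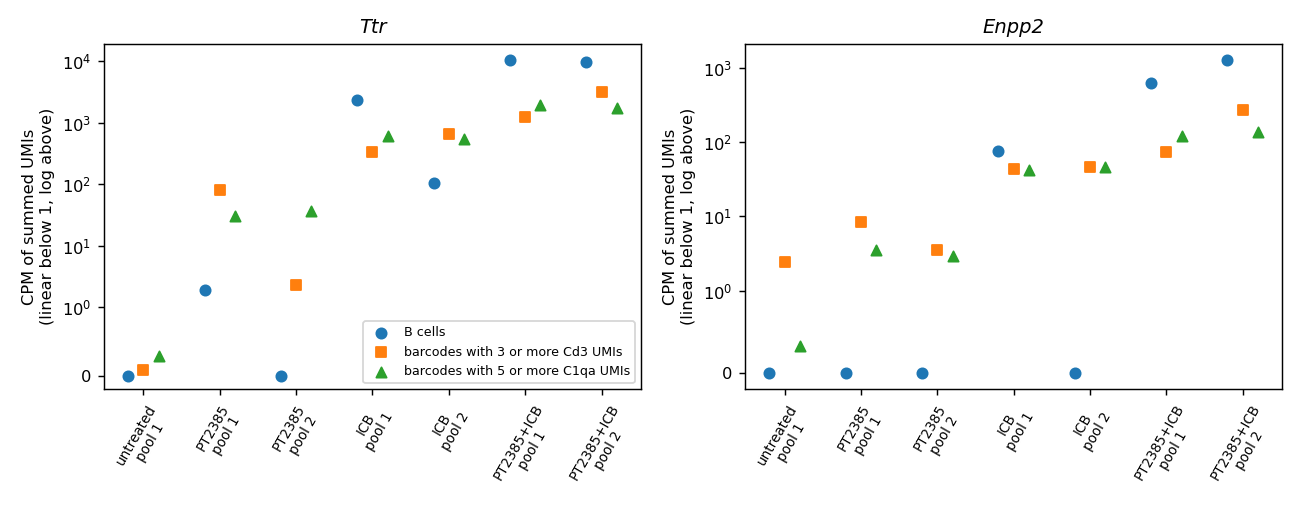
CPM of summed UMIs (linear below 1, log above) of Ttr and Enpp2 by library, in B cells and in 2 other kinds of barcodes. One kind had 3 or more Cd3 UMIs and under 5 C1qa UMIs, the other 5 or more C1qa UMIs. Ttr is at or under 1.94 CPM in B cells without ICB and at 106 CPM or more with it, and it is higher with ICB than without in the other 2 kinds of barcodes too.

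The 2 genes that fell with ICB are known from macrophages as well. Fth1, the heavy chain of ferritin, was at 8697 CPM in the untreated B cells, 12431 and 11700 CPM with PT2385, 3240 and 3606 CPM with ICB, and 4284 and 6421 CPM in the combination pools. The sets stood apart, at -1.23 ± 0.17 (SE) on the log2 scale with edgeR adjusted p = 0.0228. In the barcodes with C1qa it was at 15691 to 21550 CPM without ICB and 8938 to 17009 CPM with it. Without B cells that had 5 or more myeloid UMIs the change in Fth1 was -0.10, in a fit with fewer libraries. The untreated library, PT2385 pool 2 and ICB pool 2 then had 7, 5 and 5 B cells. They were left out as under the minimum of 10, so PT2385 pool 1 was the only library without ICB. The part of the lost libraries and of the removed cells in this value was not tested.

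Saa3, an acute-phase gene, was at 55.3, 367 and 284 CPM in the B cells of the libraries without ICB and at 0, 5.30, 0 and 27.0 CPM in those with it, log2 -4.29 ± 0.58 (SE) with edgeR adjusted p = 0.0228. Of its 257 UMIs 83.3% lay in 3 cells. In the barcodes with C1qa Saa3 was at 54.0 to 603 CPM and 5.53 to 147 CPM. None of the 6 ICB calls held when PT2385 pool 1 or PT2385 pool 2 was left out, when 0 genes passed, with edgeR adjusted p for Ttr of 0.159 and 0.134.

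For ICB, the 8 tested genes of B cell development had a median log2 change of 1.74, beside 0.02 over all genes, and none passed. Of the 10 B cells with development transcripts described above, 8 were in ICB pool 1 and 0 in ICB pool 2 or combination pool 2. These 10 held 296 of 297 B cell UMIs of Vpreb1, all 160 of Igll1 and 34.3% of the 618 of Vpreb3. Their part in the median was not tested. The strongest gene was Vpreb3, a chaperone of the pre-B cell receptor, at 1.54 and edgeR adjusted p = 0.195. Vpreb3 was at 47.4 CPM in the untreated library, 144 and 112 CPM with PT2385, 335 and 178 CPM with ICB, and 256 and 346 CPM in the combination pools. In the interaction the strongest gene was Ighg1 (edgeR adjusted p = 0.301), of whose 6452 B cell UMIs 5530 lay in the single cell named above. Iglc1 and Ercc6l2 followed at edgeR adjusted p = 0.983.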

How the data were processed

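RNA of sorted CD45+ cells was measured in 7 libraries. UMI counts per gene and barcode were used as deposited, over 32285 features. The file headers name Cell Ranger 7.0.0, while the submitters' processing notes name Cell Ranger 2.2.0, Seurat 5 and the build GRCm39, and how these versions relate is not given in the sources used here. A barcode was analysed if it had 300 or more genes and no more than 10% of its UMIs from mitochondrial genes. No doublet caller was run, and ambient RNA was not subtracted.

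Shares were compared by exact two-sided permutation over libraries, adjusted over 10 tests. Gene tests used edgeR 4.0.16 (quasi-likelihood, TMM, filterByExpr, R 4.3.3) on UMIs summed over the B cells of a library, and DESeq2 1.42.0 as an alternative. The edgeR fits were tested on simulated data. Named genes are the markers and immunoglobulin constant genes. They also include, per gene test, up to 5 rises and 5 falls past the threshold with a mean of at least 20 CPM (the 3 smallest p where fewer than 3 passed), and the 10 highest and lowest class ratios at 50 CPM or more, immunoglobulin genes aside. The highest genes of each list were examples by the rule, and other list genes were picked after their values were seen. Libraries are separate pools of mice per the labels, so p-values measure the spread between pools. The members and lists were chosen with earlier results of these data known.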

Additional observations from a re-analysis of the deposited data

How the results depend on the processing

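No paired analysis was possible because the labels give the groups no shared replicate numbers. Over 172 alternative values of the shares, 157 kept their direction, 15 reversed and none passed the threshold (lowest exact permutation p = 0.0857, lowest adjusted p = 0.714). The reversals were the plasma fraction for ICB with 1 Cd79a UMI (0.213), the plasma share for PT2385 without members with 5 or more myeloid UMIs (-0.0328), and the Ighm and Ighd share for ICB without Jchain-rich B cells (4.49, an alternative added after seeing the data). On the log2 scale the PT2385 contrasts were 0.10 for B cells, -0.42 for plasma cells and 0.0555 for both. With 1 library left out, the B cell share ran from -0.368 to 0.251 for PT2385 and from -0.0378 to 0.441 for ICB, the share of both classes from -0.376 to 0.258 and from -0.00992 to 0.465, the plasma share for PT2385 from -0.0265 to 0.0227, and the plasma fraction from -8.03 to 0.932 and from -9.28 to 0.0203.

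The count of genes called for PT2385 was 1. It was 16 with DESeq2, 9 with library sizes without immunoglobulin genes and 169 without a filter on low counts. With 3 Cd79a UMIs it was 0, with 1 factor 2, and with a library left out 0 to 4. It was 8 without Jchain-rich and 6 without Ttr-rich B cells, both added after seeing the data. For ICB the count was 6. It was 119 without a filter, 0 with 1 factor, and 0 to 7 with a library left out. It was 2 with 1 Cd3 UMI allowed and 3 without Ttr-rich B cells, both added after seeing the data. The interaction gave 0 genes, 17 without a filter and 0 to 3 with a library left out. The interaction could not be fitted without the untreated library. Without members with 5 or more myeloid UMIs, the untreated library, PT2385 pool 2 and ICB pool 2 had 7, 5 and 5 B cells. They were under the minimum of 10 and were left out of that fit. ICB pool 1 was then the only library without PT2385, and PT2385 pool 1 the only one without ICB. The interaction could not be fitted there either, and counts of genes for PT2385 and ICB are not given. The causes were not tested. B cells numbered 11 to 81 per library and plasma cells 0 to 8, which limits every comparison.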
